A study of Mus musculus with 11 samples.

Results

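Transcripts of the epidermal barrier and of the desmosome were followed in fibroblasts sorted from mouse skin and wounds. The set was defined by gene symbol and left out the keratins. It holds 36 genes, of which 35 have a row among the 47643 gene symbols of the table, and Flg was not analysed here. They comprise 13 genes of the cornified layer and its proteases (Lor, Flg2, Ivl, Sprr1a, Sprr1b, Hrnr, Cdsn, Klk5, Klk7, Casp14, Tgm1, Tgm3 and Asprv1), 8 genes of secreted or early differentiation products (Krtdap, Sbsn, Dmkn, Calml3, Ly6d, Sfn, Lgals7 and Fxyd3), 9 genes of the desmosome (Dsp, Dsg1a, Dsg3, Dsc1, Dsc3, Pkp1, Pkp3, Jup and Perp), 4 genes of other epithelial contacts (Cdh1, Epcam, Cldn1 and Cldn4) and the transcription factor gene Trp63.

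The cells came from normal skin (NS) of the back and from 5-day wounds (5dw) of WT mice and of Act mice, which express INHBA, the gene for the activin A subunit, from the keratin 14 promoter and therefore in keratinocytes. All mice were 9 to 12 weeks old and had a mixed CD-1 and C57Bl/6 background, and the WT mice were littermates of the Act mice. Live cells were collected by FACS as positive for CD140a, the receptor encoded by Pdgfra, and negative for CD45. CD3, CD11b and F4/80 served as further markers for exclusion, and no epithelial marker is named among them. RNA of 3 mice was pooled for each library, so the spread between libraries is a spread between pools. Each group had 3 libraries except Act 5dw with 2, because the authors had excluded the Act 5dw library numbered 2 during quality control.

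In the epidermis, keratinocytes leave the basal layer, build desmosomes that tie their keratin filaments to those of their neighbours, and then replace the plasma membrane by a cornified envelope. Loricrin, involucrin and the small proline-rich proteins are cross-linked into this envelope by transglutaminases, and kallikrein proteases later cut corneodesmosin so that dead cells can be shed. Dermal fibroblasts are not known to build either structure.

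The libraries held fibroblast RNA by their markers. Pdgfra was at 49.8 to 65.3 RPKM (reads per kilobase of transcript, scaled to the mapped reads of the library) in NS and at 29.6 to 37.3 in 5dw, and the summed RPKM of 10 fibroblast markers was 13592 to 19447 in NS and 24090 to 27292 in 5dw. Of the 10, Col1a1, Col1a2 and Col3a1 were called higher in 5dw of both genotypes, and 5 in WT and 4 in Act were called lower. The higher sum in 5dw is therefore not a rise of most markers. The label was checked through Inhba, which was at 3.40 to 6.93 RPKM in WT NS and at 36.3 to 91.1 in Act NS (adjusted p = 0.0128). In 5dw it was at 15.8 to 24.0 in WT and at 26.2 and 50.2 in Act, without overlap but not called (log2FC 0.86, adjusted p = 1.0). Mapped reads per library, recovered from the RPKM values, ranged from 18649321 to 39702138. Of other cell types, 9 immune markers summed to 16.5 to 52.3 RPKM in NS and to 66.5 to 118 in 5dw, where most of it came from Cd3e, while Ptprc, which encodes CD45, was at 0.0498 RPKM or less in every library. The sums were 3.32 to 8.26 in NS and 1.67 to 3.32 in 5dw for melanocyte markers, and 67.1 to 113 and 46.8 to 55.1 for sebaceous gland markers. The sebaceous sum does not follow each of its genes. In WT the log2FC was -0.70 for Mgst1 and -2.03 (Scd3) to -2.75 (Elovl3) for Scd3, Awat1 and Elovl3. In Act, Mgst1 (-0.53) and Elovl3 (-1.76) were called lower, and Awat1 and Scd3 were not. For hair shaft and inner root sheath markers the sums were 0.148 to 8.97 and 0.151 to 2.54. They were 5.76 to 10.6 and 16.1 to 18.2 for endothelial markers, and 2.94 to 6.22 and 1.81 to 2.44 for skeletal muscle markers.

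Epidermal transcripts made up a small share of every library, and that share differed widely between libraries of the same group. The RPKM of the 35 genes added up to 856, 1793 and 1887 in WT NS (libraries 1, 2 and 3 in that order, as in all lists of values here). In Act NS the sums were 851, 2275 and 3559. The wounds held 93.9, 169 and 492 in WT, and 152 and 187 in Act (libraries 1 and 3). This was 0.315% to 1.30% of the summed RPKM of all genes in NS and 0.0375% to 0.194% in 5dw. Every 5dw library lay below every NS library, and the means were 1512 ± 570 (SD, n = 3) in WT NS, 251 ± 211 (SD, n = 3) in WT 5dw, 2228 ± 1355 (SD, n = 3) in Act NS and 169.7 ± 24.9 (SD, n = 2) in Act 5dw, with no test of the sum. In bulk RNA, fewer cells of a type and less RNA per cell cannot be told apart. The summed RPKM of the keratinocyte keratins Krt5, Krt14, Krt15, Krt1 and Krt10 moved with the set, at 859 to 3255 in NS and 97.1 to 843 in 5dw. Of the 5, 4 were called lower in wounds of each genotype (48.8% of all genes in WT and 36.5% in Act). The 4 wound-edge keratins (Krt6a, Krt6b, Krt16 and Krt17) summed to 103 to 508 RPKM in NS and 72.8 to 684 in 5dw, with 2 called higher and 1 lower in WT and 1 each in Act (9.45% and 9.04% of all genes were called higher). The part of differing keratinocyte RNA in the results on the set was not tested.

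**Figure D1:**
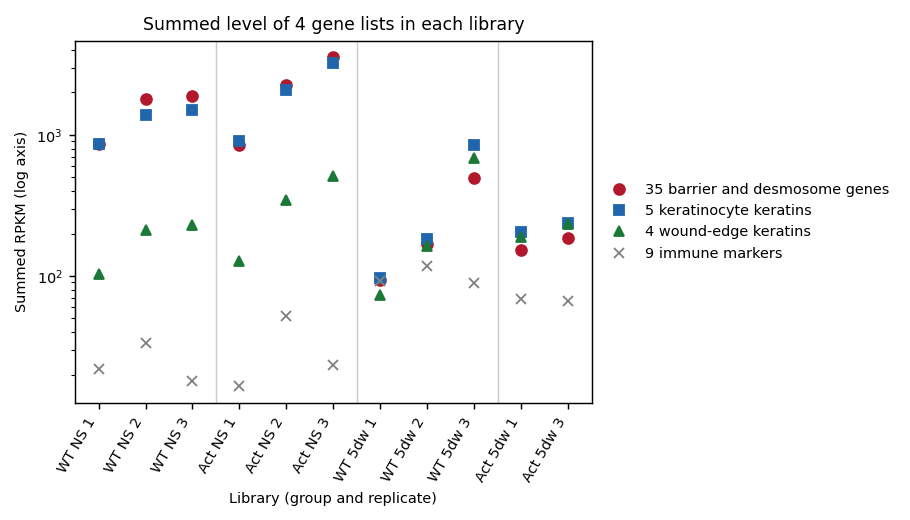
Summed RPKM (log axis) of the 35 barrier and desmosome genes, 5 keratinocyte keratins, 4 wound-edge keratins and 9 immune markers in each of the 11 libraries, 1 point per list and library. The barrier and desmosome sum was 851 to 3559 in NS and 93.9 to 492 in 5dw, and WT 5dw 3 had the highest 5dw sum of these genes and of both keratin lists.

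Several libraries stood apart for nearly all of these genes. Act NS 3 was the highest NS library for 34 of the 35 genes, with Klk7 as the exception, against 13.8% of all genes tested. WT NS 1 and Act NS 1 were the lowest NS libraries for 32 genes (23.9% of all genes tested), with Sprr1b, Hrnr and Tgm3 as exceptions. Among the wounds, WT 5dw 3 was the highest library for 34 genes, with Sbsn as the exception, against 18.1% of all genes. WT 5dw 1 was the lowest for 26 genes (12.2% of all genes). The heat map of single genes shows both patterns as columns that are brighter or darker over almost their whole length.

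**Figure D2:**
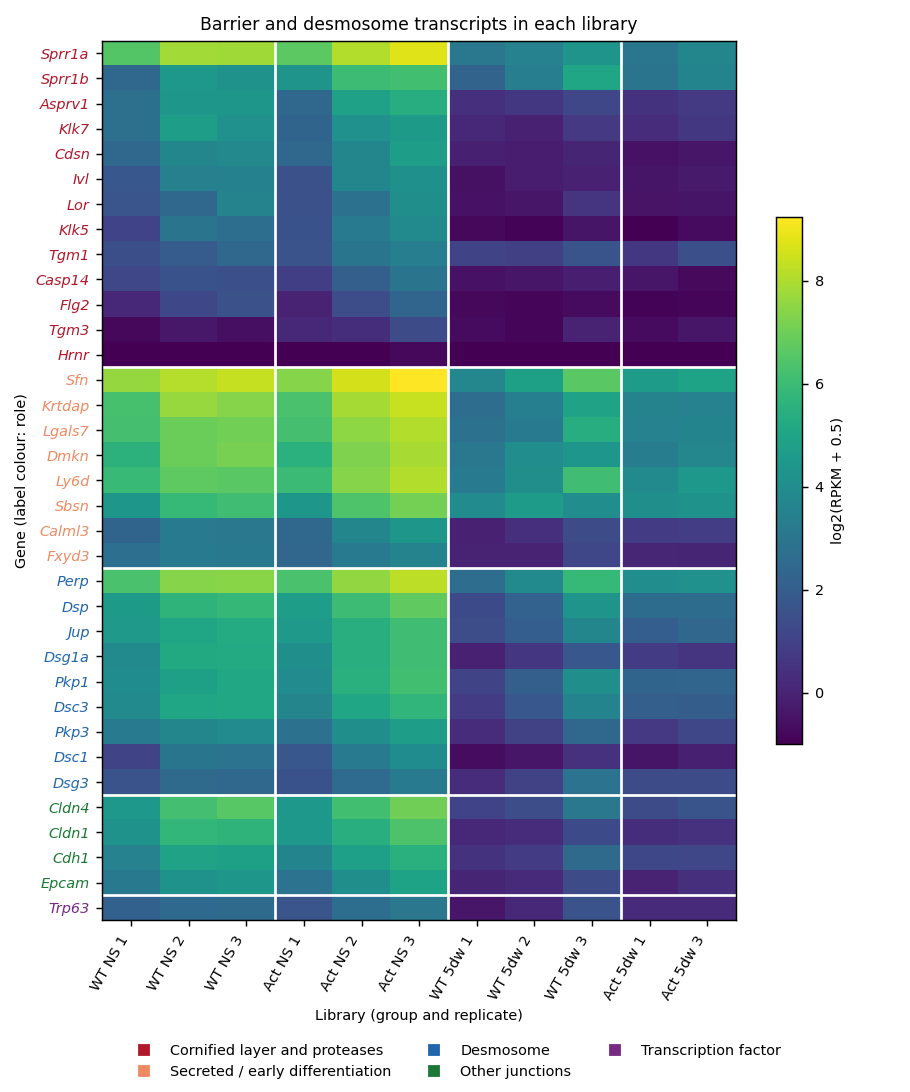
Heat map of log2(RPKM + 0.5) for the 35 genes (rows, ordered by role and by level in NS) in the 11 libraries (columns), with white lines between roles and groups. NS columns are brighter than 5dw columns, Act NS 3 is the brightest NS column, and WT 5dw 3 is the brightest 5dw column.

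The effect of wounding was tested in each genotype with limma on log2(RPKM + 0.5), a scale that understates changes of low genes, over 11979 genes with Benjamini-Hochberg adjustment. In WT mice, 29 of the 33 genes tested were lower in 5dw than in NS (48.8% of all genes were called lower and 9.45% higher), and none of the 33 was called higher. Their median log2FC was -2.74, against -0.40 over all genes. In Act mice, 32 of the 33 were lower (36.5% of all genes lower, 9.04% higher), with a median log2FC of -3.24 against -0.31. With median-ratio scaling, which moved the median of all genes to 0.03 and 0.02, 27 and 30 genes were lower, with medians of -2.30 and -2.91. The share of all genes called lower was then 20.8% in WT and 20.0% in Act, and the share called higher 24.1% and 20.8%. Of the 33 genes, 11 passed the filter on low values only through NS libraries and so had to differ: Lor, Flg2, Ivl, Cdsn, Klk5, Casp14, Fxyd3, Dsc1, Epcam, Cldn1 and Trp63. Their tests are given from the fit without the filter, in which all 11 were called lower in both genotypes. Without the filter, 27 of 35 genes in WT and 30 of 35 in Act were called lower (24.9% and 17.5% of 26465 genes were called lower, 5.67% and 5.31% higher), and Hrnr was not called in either. Without WT 5dw 3 the count was 30 in WT and 31 in Act, without Act NS 3 it was 29 in both, and without both NS libraries numbered 1 it was 31 and 32.

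**Figure D3:**
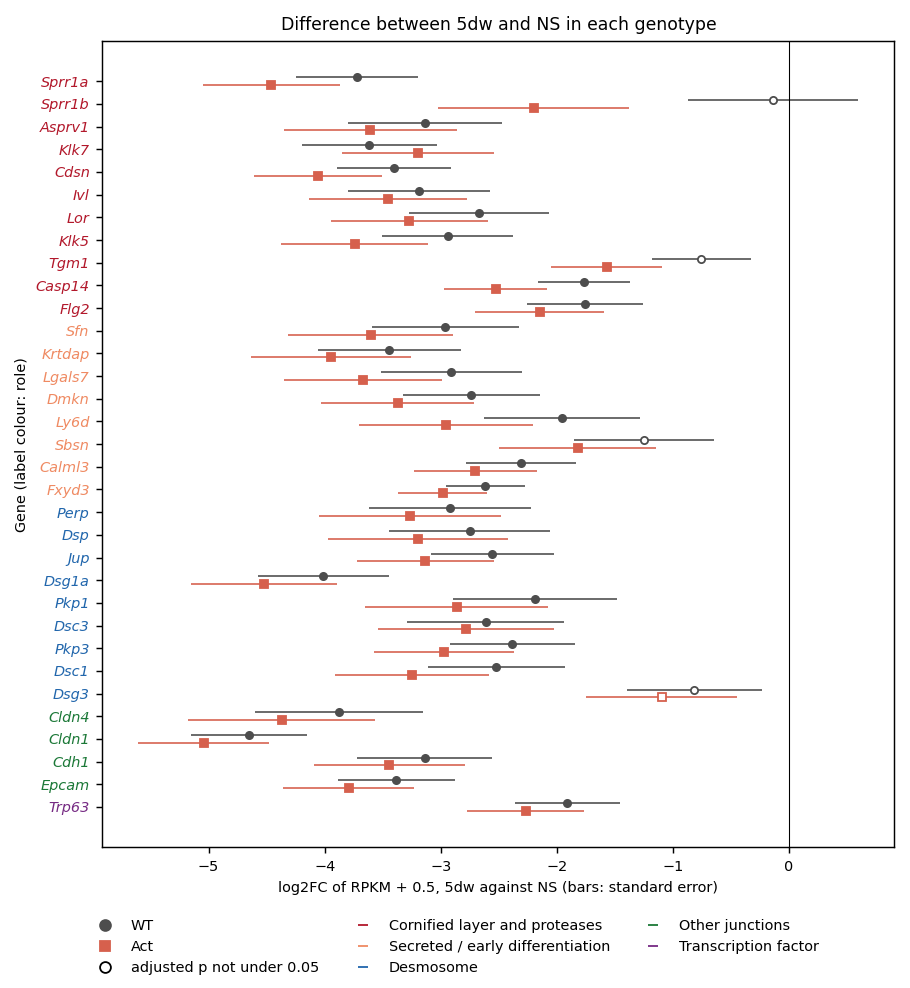
log2FC of RPKM + 0.5 between 5dw and NS for the 33 genes tested, with standard errors as bars, in WT (circles) and Act (squares); open symbols did not reach an adjusted p under 0.05. Values run from -4.65 (Cldn1) to -0.14 (Sprr1b) in WT and from -5.04 (Cldn1) to -1.10 (Dsg3) in Act, and only Sprr1b, Tgm1, Sbsn and Dsg3 in WT and Dsg3 in Act are open.

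Among structural proteins of the cornified envelope, Sprr1a had the highest level. Its RPKM was 90.1, 227 and 221 in WT NS, 101, 265 and 435 in Act NS, 8.16, 11.3 and 19.1 in WT 5dw, with 7.61 and 12.7 in Act 5dw. The groups of wounds and normal skin did not overlap, and the log2FC was -3.72 ± 0.53 (SE, adjusted p = 0.000225) in WT and -4.46 ± 0.59 (SE, adjusted p = 0.000224) in Act. Sprr1b, its neighbour in the same gene cluster and a protein of the same family, had lower levels in NS. Its RPKM was 4.87, 21.5 and 18.2 in WT NS, 19.2, 63.8 and 69.5 in Act NS, 4.31, 10.0 and 32.3 in WT 5dw, with 7.10 and 11.9 in Act 5dw. The WT groups overlapped widely, since WT 5dw 3 exceeded every WT NS library. The log2FC of Sprr1b was -0.14 ± 0.74 (SE, adjusted p = 0.883) in WT and -2.20 ± 0.82 (SE, adjusted p = 0.0487) in Act, a difference between genotypes that did not pass the test of the interaction (log2FC -2.06 ± 1.10, SE, adjusted p = 0.999). In Act, the call was lost under 10 alternatives, among them recovered reads in limma-voom (adjusted p = 0.0711), median-ratio scaling (0.0968) and no filter (0.110), with an adjusted p of up to 0.216 (without Act 5dw 1).

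The genes for both proteins lie on the reverse strand of chromosome 3, at chr3:92483952-92485895 (Sprr1a) and chr3:92436809-92438789 (Sprr1b) of GRCm38. Lor (chr3:92080271-92083142), Ivl (chr3:92570902-92573735), Flg2 (chr3:93197278-93221391) and Hrnr (chr3:93319749-93333570) lie in the same region, so these 6 genes share a chromosomal neighbourhood that the choice of the set did not use. The 250 bases before the start of 4 cornified-layer genes are given here from RefSeq (GRCm38.p6), 5′ to 3′ on the strand of the gene, to set the neighbours Sprr1a and Sprr1b, of which Sprr1a was called lower in WT wounds and Sprr1b was not, beside genes of the same layer on other chromosomes. They are the 4 with the highest mean RPKM in NS among cornified-layer genes with an entry in the promoter table. Capitals mark matches on either strand to the TATA box motif, TATAAA, and to the GC box motif, GGGCGG. They also mark the AP-1 motif on either strand, searched in the wide form TGANTCA with any base at N.
Sprr1a, chr3:92485882-92486131, reverse strand: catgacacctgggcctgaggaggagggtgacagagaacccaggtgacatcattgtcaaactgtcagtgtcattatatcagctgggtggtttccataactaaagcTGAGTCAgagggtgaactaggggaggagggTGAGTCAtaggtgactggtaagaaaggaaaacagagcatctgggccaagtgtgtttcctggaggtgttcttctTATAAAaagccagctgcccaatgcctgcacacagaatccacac
Sprr1b, chr3:92438780-92439029, reverse strand: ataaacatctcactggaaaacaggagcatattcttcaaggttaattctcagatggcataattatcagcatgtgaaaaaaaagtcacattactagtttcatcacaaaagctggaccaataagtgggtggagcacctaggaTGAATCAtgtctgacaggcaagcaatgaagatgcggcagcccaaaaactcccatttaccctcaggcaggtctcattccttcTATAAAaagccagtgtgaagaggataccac
Asprv1, chr6:86627924-86628173, forward strand: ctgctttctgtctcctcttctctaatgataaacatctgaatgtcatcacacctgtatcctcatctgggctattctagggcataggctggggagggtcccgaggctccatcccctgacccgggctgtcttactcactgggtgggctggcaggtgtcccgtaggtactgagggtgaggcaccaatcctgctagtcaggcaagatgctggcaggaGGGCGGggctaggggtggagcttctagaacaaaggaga
Klk7, chr7:43811044-43811293, forward strand: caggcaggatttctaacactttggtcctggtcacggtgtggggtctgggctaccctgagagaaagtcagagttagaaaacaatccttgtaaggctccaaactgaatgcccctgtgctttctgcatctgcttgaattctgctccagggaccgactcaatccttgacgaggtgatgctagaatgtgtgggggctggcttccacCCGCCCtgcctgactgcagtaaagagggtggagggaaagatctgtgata

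Both small proline-rich genes carry a TATA box and matches to this wide form of the AP-1 motif. Sprr1a holds 2 copies of TGAGTCA and Sprr1b 1 copy of TGAATCA, which differs at the middle base. Asprv1 and Klk7 hold a GC box and neither other motif in the window. Over the window of 250 bases before to 50 after the start, 24 of the genes matched the table with 28 entries. Dsg1a, Dsg3, Dsc1, Dsc3, Pkp1, Pkp3, Perp, Cdh1, Trp63, Calml3 and Ly6d had no entry. The shares below therefore leave out all desmosome genes but Dsp and Jup. The AP-1 motif was present in 11 of these 28 (39.3%) and in 7.81% of all 32851 entries, TATAAA in 7 (25.0% against 13.6%) and the GC box in 9 (32.1% against 35.7%). Some genes have several entries, and counted by gene the AP-1 motif was present in 9 of 24 against 2425 of 27025. TATAAA that began 40 to 20 bases before the start on the strand of the gene was present in 6 entries, or 21.4%, against 1.99% of all entries. The motifs do not overlap in sequence with each other, neighbouring genes of a cluster share ancestry, and a match describes letters and not a bound site.

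Lor, Ivl and Flg2 were called lower in wounds of both genotypes, and Hrnr was not. The call of Flg2 was lost under 1 alternative in WT (adjusted p = 0.0501) and 3 in Act (up to 0.0780), and those of Lor and Ivl under 1 each in Act (0.0666 and 0.0670). Loricrin (Lor), a major protein of the envelope, was at 2.72, 4.94 and 11.6 RPKM in WT NS, 2.40, 6.60 and 16.5 in Act NS, 0.212, 0.276 and 0.985 in WT 5dw, with 0.219 and 0.241 in Act 5dw. Its log2FC without the filter was -2.67 ± 0.65 (SE, adjusted p = 0.0122) in WT and -3.27 ± 0.72 (SE, adjusted p = 0.0109) in Act. Involucrin (Ivl), an early scaffold of the envelope, was at 2.97, 10.5 and 10.8 RPKM in WT NS, 2.41, 12.4 and 17.2 in Act NS, 0.197, 0.349 and 0.469 in WT 5dw, with 0.253 and 0.345 in Act 5dw. Neither gene overlapped between NS and 5dw. Flg2 and Hrnr, large proteins of the filaggrin family, stood at the lower end. Flg2 was at 0.516 to 4.56 RPKM in NS and at 0.0380 to 0.114 in 5dw, and Hrnr at 0.0895 or less in every library, with 23 reads in Act NS 3 and 3 or fewer in each of the others. No change of Hrnr was detectable at this depth, since 0 reads allow up to 0.0131 RPKM in Act 5dw 1.

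Klk5 and Klk7, the kallikreins of desquamation, lie in the same cluster on chromosome 7 (chr7:43841971-43851181 and chr7:43811294-43816359). Klk5 was at 1.57, 7.22 and 6.10 RPKM in WT NS, 2.50, 8.79 and 14.2 in Act NS, 0.0754, 0.0386 and 0.251 in WT 5dw, with 0 and 0.117 in Act 5dw, where its 0 reads in Act 5dw 1 allow up to 0.109 RPKM. Its mean was 69.8-fold higher in NS than in 5dw, the largest ratio among the 34 genes other than Hrnr, but it rested on 0 to 13 reads in each 5dw library, and its call in Act was lost under 1 alternative (adjusted p = 0.0646). Klk7 was at 4.37 to 25.9 RPKM in NS and at 0.450 to 1.13 in 5dw, with a log2FC of -3.62 ± 0.58 (SE, adjusted p = 0.0005) in WT and -3.19 ± 0.65 (SE, adjusted p = 0.00275) in Act. Corneodesmosin (Cdsn), the desmosomal adhesion protein they cut, was at 4.87, 12.7 and 13.5 RPKM in WT NS, 4.93, 12.6 and 25.6 in Act NS, 0.423, 0.376 and 0.539 in WT 5dw, with 0.200 and 0.277 in Act 5dw. All wounds were below all normal skin for these 3 genes. Asprv1, a protease that processes profilaggrin, fell from 4.94 to 41.1 RPKM in NS to 0.814 to 1.78 in 5dw, and Casp14, the caspase of cornification, from 1.35 to 7.18 to 0.101 to 0.399.

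Transglutaminases cross-link the envelope proteins. Tgm1 was at 2.28, 3.50 and 5.06 RPKM in WT NS, 2.57, 7.33 and 9.90 in Act NS, 1.62, 1.40 and 2.70 in WT 5dw, with 1.09 and 2.34 in Act 5dw. WT 5dw 3 exceeded WT NS 1, and the log2FC of -0.75 ± 0.43 (SE, adjusted p = 0.151) in WT did not pass the test, while -1.57 ± 0.48 (SE, adjusted p = 0.0205) in Act did. With the replicate number as a block, Tgm1 also passed in WT (adjusted p = 0.0181), and its call in Act was lost under 4 alternatives, with an adjusted p of up to 0.166 (without Act 5dw 1). Tgm3 was under the filter, at 0.0767, 0.298 and 0.171 RPKM in WT NS, 0.647, 0.763 and 2.08 in Act NS, 0.116, 0.0624 and 0.518 in WT 5dw, with 0.118 and 0.264 in Act 5dw. It was the single gene of the set with every Act NS library above every WT NS library, a pattern met in 0.993% of all genes tested (7.98% for the opposite order, which no gene of the set had), and it rested on 8 to 23 reads in WT NS and 64 to 198 in Act NS.

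Sfn, the gene with the highest mean RPKM of the set in NS, belongs to the secreted and early differentiation products and encodes the epithelial 14-3-3 sigma protein. It was at 197, 274 and 329 RPKM in WT NS, 165, 384 and 608 in Act NS, 13.0, 27.8 and 99.4 in WT 5dw, with 24.4 and 30.7 in Act 5dw. Its log2FC was -2.96 ± 0.64 (SE, adjusted p = 0.00254) in WT and -3.60 ± 0.71 (SE, adjusted p = 0.00225) in Act. Krtdap, Dmkn and Sbsn are neighbours on chromosome 7 (chr7:30787896-30791097, chr7:30763756-30781063 and chr7:30751471-30756134) and encode secreted proteins of the differentiating layers. Krtdap was at 76.8, 205 and 167 RPKM in WT NS and 5.86, 10.4 and 29.4 in WT 5dw, with a log2FC of -3.44 ± 0.62 (SE, adjusted p = 0.000912). Sbsn was at 20.8, 57.0 and 68.5 in WT NS, 20.99, 85.1 and 137 in Act NS, 15.0, 24.2 and 15.9 in WT 5dw, with 16.7 and 18.1 in Act 5dw. WT 5dw 2 exceeded WT NS 1, and the log2FC of Sbsn was -1.25 ± 0.60 (SE, adjusted p = 0.0954) in WT and -1.82 ± 0.68 (SE, adjusted p = 0.0468) in Act. In the WT comparison, Sbsn passed with the replicate block (adjusted p = 0.0242) and without WT NS 1 (0.0302), and the call in Act was lost under 12 alternatives, with an adjusted p of up to 0.159 (without Act 5dw 1). The remaining genes of this group, Dmkn, Lgals7 (galectin-7), Ly6d, Calml3 and Fxyd3, were lower in both genotypes, with log2FC of -1.95 (Ly6d) to -2.91 (Lgals7) in WT and -2.70 (Calml3) to -3.67 (Lgals7) in Act. Ly6d overlapped, because it was at 68.0 RPKM in WT 5dw 3 and at 58.7 in WT NS 1, and its call was lost under 6 alternatives in WT (adjusted p of up to 0.110) and under 1 in Act (0.0633).

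Desmosome genes were lower in wounds with 1 exception, and the proteins of each tier of the junction were represented. Desmoplakin (Dsp), which anchors the keratin filaments, was at 23.7, 50.3 and 56.5 RPKM in WT NS, 25.4, 65.2 and 106 in Act NS, 1.98, 4.22 and 19.1 in WT 5dw, with 5.67 and 5.67 in Act 5dw. Its log2FC was -2.75 ± 0.69 (SE, adjusted p = 0.00619) in WT and -3.20 ± 0.77 (SE, adjusted p = 0.00674) in Act. The armadillo proteins of the plaque, Jup (plakoglobin), Pkp1 and Pkp3 (plakophilins), had log2FC of -2.55, -2.19 and -2.38 in WT and -3.13, -2.86 and -2.97 in Act, all called. The calls of Pkp1 were lost under 6 alternatives in WT, with an adjusted p of up to 0.0847, and under 2 in Act, with up to 0.0665. Pkp1 overlapped between the tissues, at 16.8 RPKM in WT 5dw 3 and 15.2 in WT NS 1. Perp, a membrane protein of the desmosome, fell from 79.1 to 298 RPKM in NS to 5.86 to 57.3 in 5dw.

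The desmosomal cadherins bridge the cells. Dsg1a, a desmoglein of the upper layers, was at 14.5, 36.6 and 37.5 RPKM in WT NS, 16.5, 42.6 and 68.4 in Act NS, 0.447, 1.03 and 2.96 in WT 5dw, with 1.24 and 0.988 in Act 5dw. All wounds were below all normal skin, and the log2FC was -4.01 ± 0.57 (SE, adjusted p = 0.000217) in WT and -4.52 ± 0.63 (SE, adjusted p = 0.000319) in Act. Dsg1a has close copies in Dsg1b and Dsg1c, and how reads were divided among them was not stated by the sources used. Dsg3, a desmoglein of the basal and lower layers, was at 2.61, 5.38 and 4.91 RPKM in WT NS, 2.49, 5.45 and 8.58 in Act NS, 0.736, 1.48 and 6.92 in WT 5dw, with 2.03 and 2.07 in Act 5dw. WT 5dw 3 lay above every WT NS library. Its log2FC of -0.81 ± 0.58 (SE, adjusted p = 0.247) in WT and -1.10 ± 0.65 (SE, adjusted p = 0.190) in Act did not pass the test, but without WT 5dw 3 it passed in WT (adjusted p = 0.0127). Of the desmocollins, Dsc1 of the upper layers was at 1.62 to 15.4 RPKM in NS and 0.127 to 0.881 in 5dw, and Dsc3 of the lower layers at 12.2 to 53.9 and 1.26 to 11.9. Both were called lower in both genotypes, with log2FC of -2.52 (Dsc1) and -2.61 (Dsc3) in WT, and the call of Dsc3 in Act was lost under 2 alternatives (adjusted p of up to 0.0678).

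Genes of the other epithelial contacts were all lower. Cldn1, a claudin of the epidermal tight junction, was at 18.8, 54.3 and 50.3 RPKM in WT NS, 21.8, 43.6 and 82.2 in Act NS, 0.628, 0.715 and 1.98 in WT 5dw, with 0.765 and 0.865 in Act 5dw. It had the lowest log2FC of the set in both genotypes, at -4.65 ± 0.54 (SE, adjusted p = 0.000317) in WT and -5.04 ± 0.60 (SE, adjusted p = 0.000565) in Act without the filter, which it had passed only through NS. Cldn4 was at 21.5 to 128 RPKM in NS and at 1.60 to 8.13 in 5dw. E-cadherin (Cdh1), which forms adherens junctions, was at 11.3 to 45.5 and at 0.920 to 5.35 RPKM, and the epithelial adhesion molecule Epcam at 7.07 to 30.0 and at 0.501 to 2.03. None of these 4 genes overlapped between the tissues. Trp63, which encodes the transcription factor p63 of stratified epithelia, was at 3.99, 5.13 and 5.28 RPKM in WT NS, 2.75, 6.04 and 7.95 in Act NS, 0.276, 0.649 and 2.58 in WT 5dw, with 0.662 and 0.679 in Act 5dw. Its log2FC without the filter was -1.91 ± 0.48 (SE, adjusted p = 0.0148) in WT and -2.27 ± 0.54 (SE, adjusted p = 0.0152) in Act.

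Over the whole set, every 5dw library lay below every NS library for 27 of 35 genes (38.9% of all genes tested). These 27 include the 11 genes that passed the filter only through NS, for which the filter favours this order. The exceptions were Sprr1b, Hrnr, Tgm1, Tgm3, Sbsn, Ly6d, Dsg3 and Pkp1. Within WT the same 8 genes overlapped (55.0% of all genes were separated), whereas within Act all 35 were separated (49.8%), with 2 libraries in the wound group. For Hrnr this rests on 1 read in Act NS 1 against 0 and 1 in Act 5dw, which is not a detectable difference. NS levels exceeded 5dw levels by a ratio of means of 1.85 (Dsg3) to 69.8 (Klk5), with a median of 9.86 over 34 genes without Hrnr. By role, the median ratio was 19.2 for the cornified layer, 8.68 for secreted and early products, 7.10 for the desmosome and 19.5 for the other contacts, with ranges that overlapped.

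Genotype was tested next, in NS and in 5dw, with the samples of each tissue shared with the comparisons above. In NS, none of the 33 genes passed the test in either direction by limma (0.00835% of all genes in each direction), and 1 had an unadjusted p under 0.05. This was Sprr1b, with a log2FC of 1.78 ± 0.74 (SE, adjusted p = 0.697, 0.290 with the replicate block). Its lowest Act NS library, at 19.2 RPKM, lay above WT NS 1 and WT NS 3 and below WT NS 2. The median log2FC of the set was 0.35, with 32 of 33 genes above 0 and Klk7 at -0.20, against a median of -0.11 over all genes. The median was -0.09 without Act NS 3, -0.01 without WT NS 1 and 0.98 without Act NS 1. Same-numbered WT NS and Act NS libraries deviated together, and without both libraries numbered 1 the median was 0.60, with 32 of 33 genes above 0. The fit with the replicate block and limma-voom on the recovered reads also called none.

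In 5dw, none of the 33 genes passed the test by limma (0.00835% of all genes higher, 0.025% lower), none had an unadjusted p under 0.05, and limma-voom called none. Log2FC ran from -0.36 to 0.26, with a median of -0.15 and 30 of 33 genes below 0. Without WT 5dw 3 the median was 0.30, with 26 genes above 0, and without WT 5dw 1 it was -0.56. Flg2 and Cdsn had every Act 5dw library below every WT 5dw library, a pattern seen in 15.2% of all genes tested, and no gene of the set had the opposite order (7.87%). The interaction of wounding and genotype passed for none of the 33 genes by limma or limma-voom, and for none at an unadjusted p under 0.05, so the larger number of genes called in Act than in WT was not a difference that passed a test.

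The question whether these transcripts moved more or less than the epidermal keratins was addressed by dividing each level by the summed RPKM of Krt5, Krt14, Krt1 and Krt10 in the same library. On this scale, 16 genes had every 5dw library below every NS library (1.47% of all genes tested): Lor, Ivl, Sprr1a, Cdsn, Klk5, Krtdap, Sfn, Lgals7, Dsp, Dsg1a, Dsc1, Perp, Cdh1, Epcam, Cldn1 and Cldn4. Of these, Lor, Ivl, Cdsn, Klk5, Dsc1, Epcam and Cldn1 had passed the filter only through NS, which favours a lower value in 5dw. Sprr1b and Dsg3 had every 5dw library above every NS library (20.2% of all genes). Per 100 RPKM of these keratins, Cldn1 was at 2.41, 4.14 and 3.52 in WT NS, 2.47, 2.11 and 2.57 in Act NS, 0.651, 0.392 and 0.235 in WT 5dw, with 0.373 and 0.364 in Act 5dw. Dsg3 was at 0.334, 0.409 and 0.343 in WT NS, 0.282, 0.263 and 0.268 in Act NS, 0.762, 0.813 and 0.821 in WT 5dw, with 0.987 and 0.872 in Act 5dw. Libraries of a group lay close together on this scale for Dsg3, including WT 5dw 3. Sprr1b was at 0.625 to 3.08 in NS and at 3.46 to 5.49 in 5dw. The reference itself changed in make-up, since Krt1 and Krt10 of the upper layers fell in both genotypes (log2FC -3.47 and -5.08 in WT). Krt14 of the basal layer did not pass the test (log2FC -0.63, adjusted p = 0.408 in WT). Krt5 of the basal layer was called lower in WT (log2FC -1.78, adjusted p = 0.0377) and Act (-2.12, 0.0364). Krt15, which is not in the reference, fell further (-6.02 and -4.74), so this is not a plain contrast of upper and basal layers. Relative to Krt5 and Krt14 alone, 29 genes were separated below (3.61% of all genes) and none above (4.74%). The 29 include all 11 genes that had passed the filter only through NS.

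**Figure D4:**
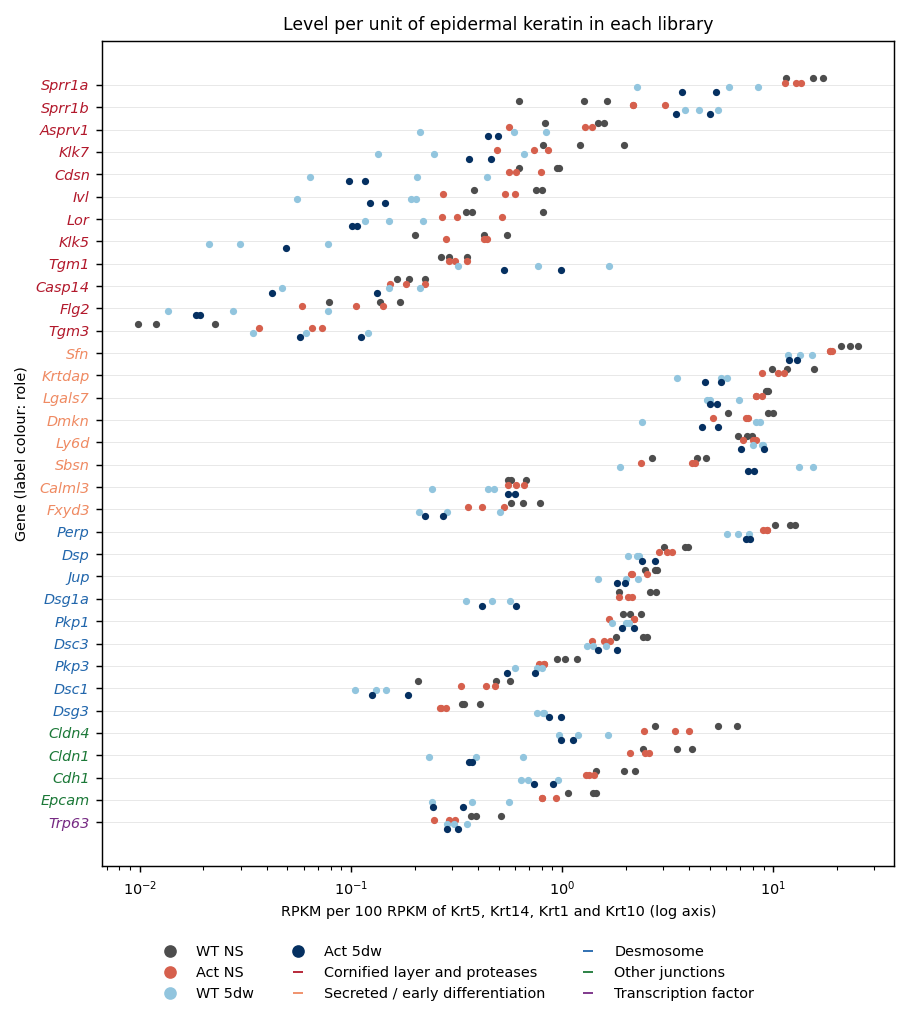
RPKM per 100 RPKM of Krt5, Krt14, Krt1 and Krt10 (log axis) in each of the 11 libraries for 34 genes, without Hrnr and without the value of 0 of Klk5 in Act 5dw 1. Sprr1b and Dsg3 are the genes whose 5dw points all lie to the right of their NS points, and the 5dw points of Cldn1, at 0.235 to 0.651, lie left of its NS points, at 2.11 to 4.14.

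In the fit on this scale, Cldn1 was the 1 gene of the 33 that passed, with a log2FC relative to keratins of -2.44 ± 0.88 (SE, adjusted p = 0.0413) in WT and -2.01 ± 0.99 (SE, adjusted p = 0.0485) in Act (0.142% and 0.0835% of all genes were called lower, 18.3% and 86.1% higher). Cldn1 passed the filter only through NS, and without the filter its adjusted p on this scale was 0.0371 in WT and 0.0446 in Act. The same keratin sum was subtracted from every gene of a library, and standard errors were nearly equal over the 33 genes (0.877 to 0.895 in WT). The p-values of this fit therefore rest on a spread shared by all genes. They do not measure the spread of single genes between pools, so the calls and shares on this scale are descriptive. The standard error of Cldn1 in WT was 0.88 with WT 5dw 3 and 0.61 without it. With the replicate number as a block, Cldn1 stayed lower in both genotypes, and in WT Cldn4 (adjusted p = 0.026), Dsg1a (0.0186) and Sprr1a (0.0386) were also lower and Sprr1b (0.0093) and Tgm1 (0.049) higher, and in Act Dsg3 (0.0179) was higher. Without WT 5dw 3, Cldn1, Cldn4 and Dsg1a were lower in both genotypes and Sprr1a in Act (0.209% and 0.251% of all genes). Dsg3, Sbsn and Tgm1 were then higher in both genotypes, and Sprr1b in WT, beside 95.5% and 95.3% of all genes. Flg2 was also called higher in WT in that fit, although its RPKM per 100 RPKM of keratins was 0.0787 to 0.170 in WT NS and 0.0781 and 0.0276 in WT 5dw 1 and 2. The pseudocount of 0.5 exceeds its wound RPKM of 0.0754 and 0.0504 there, so no direction is read from this call. Of the 11 fits that each left out 1 library, Cldn1 passed in 3 in WT and in 2 in Act, and it passed in neither genotype without both NS libraries numbered 1. None of the 33 genes passed the test between Act NS and WT NS on this scale. Every Act NS library nevertheless lay below every WT NS library for Sfn, Lgals7, Fxyd3, Dsg3, Dsc3, Pkp3, Perp, Cdh1, Epcam and Trp63. Dsg3, for example, was at 0.263 to 0.282 in Act NS and at 0.334 to 0.409 in WT NS. Sprr1b and Tgm3 had the opposite order. How many of all genes were separated in this way was not counted.

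The ratios between single libraries are given by role, with no test between roles. WT 5dw 3 exceeded the mean of WT 5dw 1 and WT 5dw 2 by 4.01-fold (Dsg1a) to 6.23-fold (Dsg3) for all 9 desmosome genes, with a median of 5.65. For 12 cornified-layer genes without Hrnr the ratio was 1.35 (Cdsn) to 5.81 (Tgm3), with a median of 1.92, and for secreted and early products 0.813 (Sbsn) to 5.48 (Ly6d). For the 4 genes of other epithelial contacts it was 2.94 (Cldn1) to 4.90 (Cdh1), with a median of 3.82, which overlaps the desmosome range. Trp63 had a ratio of 5.58, and the keratinocyte keratins 6.02 in sum. Lor, Sprr1b, Klk5 and Tgm3 had ratios in the desmosome range, while Cdsn, Casp14, Ivl, Tgm1, Flg2, Asprv1 and Sprr1a were under 2. Some of these ratios rest on few reads in WT 5dw 1, 2 and 3. Klk5 had 4, 2 and 13, Tgm3 19, 10 and 83, and Lor 15, 19 and 68. Among the genes under 2, Flg2 had 23, 15 and 34. No grouping is read from the ratios of these genes. Act NS 3 exceeded WT NS 1 by 1.86-fold (Fxyd3) to 27.2-fold (Tgm3), with a median of 4.49, and the keratinocyte keratins did so by 3.79-fold in sum. These ratios compare single libraries, and whether they reflect animals, dissection or sorting was not tested.

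**Figure D5:**
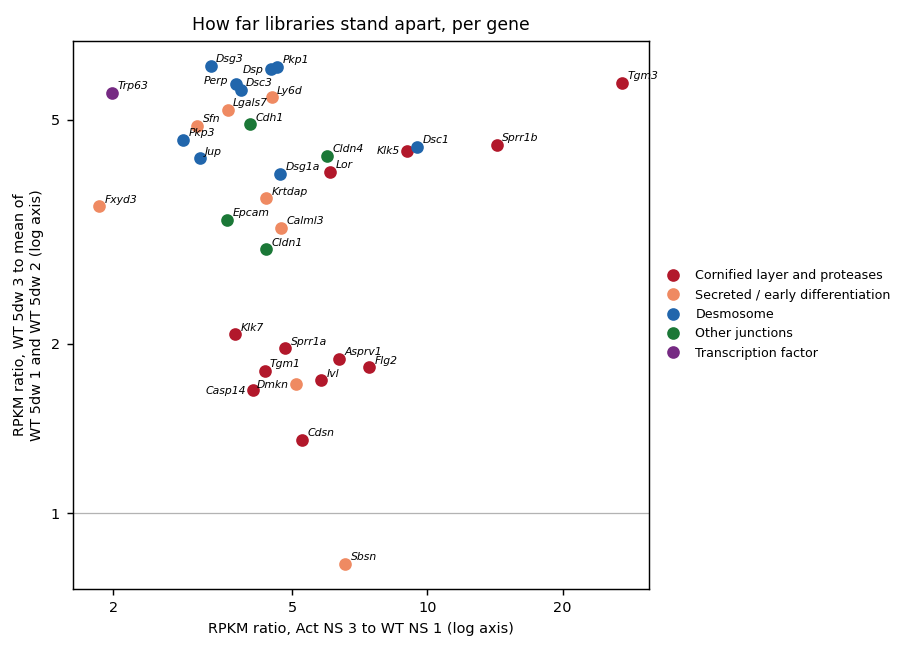
RPKM ratio of Act NS 3 to WT NS 1 (horizontal, log axis) and of WT 5dw 3 to the mean of WT 5dw 1 and WT 5dw 2 (vertical, log axis) for 34 genes, coloured by role, 1 point per gene. Desmosome genes lie between 4.01 and 6.23 on the vertical axis, while 7 cornified-layer genes lie under 2 and Sbsn, at 0.813, lies below 1.

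Further genes of the same structures were read from the same fit. Of 26 other desmosome and envelope genes, 15 were tested, of which 12 were lower in WT and 13 in Act, with medians of -1.84 and -2.62 (48.8% and 36.5% of all genes were called lower). Their log2FC ran up to 0.71 in WT and 0.90 in Act, both in the desmocollin gene Dsc2, which did not pass the test (adjusted p = 0.147 and 0.122) and is named after its values were seen. Periplakin (Ppl), an envelope and desmosome linker, was at 12.4 to 24.0 RPKM in NS and 0.445 to 1.93 in 5dw, with a log2FC of -3.53 (adjusted p = 1.5e-05) in WT, and sciellin (Scel) of the envelope at 8.46 to 26.9 and 0.383 to 0.591, with a log2FC of -3.93 (adjusted p = 1.11e-05). Scel was under 1 RPKM in every 5dw library, so it passed the filter only through NS and had to differ. Its p-value is therefore not read, and the counts of 12 and 13 include it. Cst6, which encodes a protease inhibitor of the cornified layer, and Sprr2h fell as well, with log2FC of -3.42 and -1.84 in WT. Of 22 other barrier lipid, protease and regulator genes, 19 were tested, of which 17 were lower in WT and 16 in Act, with medians of -1.74 and -2.27. Elovl4, an elongase for barrier lipids, fell from 5.52 to 30.8 RPKM in NS to 0.408 to 1.34 in 5dw, and Pou2f3, Ovol1 and Lypd3 were also called lower. Klf4, a regulator of epidermal differentiation that other skin cells also express, was an exception, at 493 to 753 RPKM in NS and 536 to 683 in 5dw (log2FC -0.03, adjusted p = 0.906 in WT). None of these genes was called higher in either genotype.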

How the data were processed

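RNA was measured by poly-A RNA sequencing of 11 libraries of sorted fibroblasts. With CLC Genomics Workbench 12, the authors mapped 100-base reads to the genome build GRCm38, summed them by gene and deposited RPKM values, 1 column per library. Processing before deposit sets 2 limits: RPKM is a share of each library, so abundant genes shift all others, and it hides depth. The mapped total of a library is the factor at which its RPKM values, multiplied by GENCODE M21 gene lengths, become whole reads (tolerance 0.03). The authors tested the genes with edgeR, but limma 3.58.1 in R 4.3.3 was used instead.

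Genes with at least 1 RPKM in at least 2 libraries were tested (11979) as log2(RPKM + 0.5) with limma-trend, 1 mean per group over all 11 libraries, 7 residual degrees of freedom, and Benjamini-Hochberg adjustment at 0.05. A p-value measures the spread between pools of 3 mice. A second fit subtracted the log2 of summed Krt5, Krt14, Krt1 and Krt10. Its p-values rest on a spread that this sum gives to all genes, and not on the spread of single genes. The genes, gene lists and tests were chosen with earlier results of these data known. All genes of the set were named, and from each other list at most the 4 with the highest mean RPKM and the 2 with the lowest p. The labels do not say what a replicate number shares, and the paper states that RNA was pooled across sorting sessions. Deviations of same-numbered libraries had r of 0.19, 0.12 and 0.11 between WT NS and WT 5dw. Between WT NS and Act NS, r was 0.55, 0.42 and 0.33. Over the 2 numbers that Act 5dw has, r was 0.02 and 0.14 with Act NS and -0.08 and 0.19 with WT 5dw. Different-numbered libraries were not set beside these, so the values do not establish that a number is a pair. No libraries were duplicates, as replicates differed by 33.2 to 85.3 times the counting variance. Alternatives were the pseudocount, the filter, the scaling, recovered reads in limma-voom, the replicate block, the groups in the fit and leaving out libraries. The code was tested on simulated data. Sequences came from RefSeq tables of GRCm38.p6, and proteins were not used here.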

Additional observations from a re-analysis of the deposited data

How the results depend on the processing

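The wounding counts of 29 genes (WT) and 32 genes (Act) kept their direction under all alternatives, with 26 to 31 and 25 to 32 genes lower and none higher, and 26 and 22 genes were called in every alternative that tested them. Leaving out 1 library gave 26 to 30 in WT and 25 to 32 in Act, and the replicate block gave 31 and 32. The replicate block changed the calls of Tgm1 and Sbsn in WT and no other call on the RPKM scale. The genotype and interaction counts were 0 under every alternative. Sprr1b in WT, which did not pass, changed its direction from -0.14 to 0.32 with median-ratio scaling and to 0.24, 0.12 and 0.51 without WT NS 2, WT NS 3 or WT 5dw 1, in a range of -0.87 to 0.51 when 1 library was left out. Relative to keratins the counts were small and moved. In WT, 1 gene lower became 0 with a pseudocount of 1 or without both NS libraries numbered 1, 4 with the replicate block, 2 relative to Krt5 and Krt14, and 0 to 3 when 1 library was left out, and 0 genes higher became 3 without the filter, 2 with the block, and 0 to 5 when 1 library was left out. In Act, 1 lower became 3 and 0 with pseudocounts of 0.1 and 1, 0 without both NS libraries numbered 1, and 0 to 4 when 1 library was left out, and 0 higher became 1 with a pseudocount of 1, without the filter or with the block, and 0 to 3 when 1 library was left out. The upper ends all came without WT 5dw 3. The genes higher without the filter include Hrnr in both genotypes (the single one in Act), and the 5 in WT include Flg2. Both have wound levels far under the pseudocount, and neither is read as higher. For the rest, the cause was not tested. The mean sum in Act 5dw was 199.7 RPKM with median-ratio scaling and 142.2 without Sfn, against 169.7, and leaving out 1 library gave 1325 to 1840 in WT NS, 1563 to 2917 in Act NS, 131.3 to 330.2 in WT 5dw and 152.2 to 187.3 in Act 5dw. Depth limited Hrnr, Klk5, Flg2, Casp14 and Lor in 5dw, and the other 30 of 35 genes had at least 10 reads in every 5dw library.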
